A study of Mus musculus with 6 samples.

Results

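The collagen chain genes are the genes that encode the polypeptide chains of the collagens, and they were taken as every gene whose mouse symbol is made of Col, digits, the letter a and digits. There were 44 of them among the 31053 Ensembl gene identifiers in the count tables, and 43 had at least 1 read. They were placed in 11 fibrillar chains, 6 basement membrane chains (type IV), 6 beaded filament chains (type VI), 9 fibril-associated chains (FACIT), 3 hexagonal network chains, 1 anchoring fibril chain, 4 transmembrane chains, 2 multiplexins and 2 others. They were read in cells from the lungs of wild type C57BL6 mouse fetuses at E17. The lungs were digested with liberase, and the cells were frozen in DMSO and later plated on a thin coat of diluted Matrigel, a basement membrane extract. The medium, made for haematopoietic stem and progenitor cells (HSPC), held mTPO, IL6, SCF, FGF, VEGF and Flt3 and was renewed after a wash on day 3. On days 4, 5 and 6 the floating cells were collected as the suspension fraction. Accutase released the attached layer, from which live cells were enriched for VE-cadherin+ ones (VE-cadherin is an adhesion protein of endothelium) by sorting, and these are the adherent fraction. Each fraction gave 1 library on each day, so there were 3 adherent and 3 suspension libraries. The fractions therefore differ in sorting and detachment as well as in attachment, and these cannot be told apart here.

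A collagen molecule is a helix of alpha chains that are modified in the endoplasmic reticulum, secreted and assembled outside the cell. Fibrillar chains form the banded fibrils that give lung and other connective tissue its strength and are made mainly by fibroblasts and other mesenchymal cells. Type IV chains form the sheet-like network under epithelium and endothelium, and type VI chains form beaded filaments in the matrix next to cells.

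The libraries were read from the 3' ends of transcripts with the 10x 3' v3 droplet kit, and the deposited values are read counts per gene summed over all droplets of a library. Gene counts on the sense strand summed to between 36451255 and 57784974 per library. Collagen chains took 0.342%, 0.472% and 0.381% of these counts in the adherent libraries of days 4, 5 and 6, and 0.0137%, 0.0117% and 0.00339% in the suspension libraries of the same days. Levels are given as CPM, reads of a gene relative to the TMM-scaled size of its library, and 3 counts in a library correspond to between 0.0594 and 0.0756 CPM. Without a cell axis, fewer cells of a type and less RNA per cell cannot be told apart. Reads rather than molecules were counted, and nothing in the labels tells if each day was a culture of its own, so the p-values cover the spread among these libraries, which may be technical. Reads were not divided by length, so levels are compared between libraries and ratios of chains are followed across libraries.

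Several collagen genes lie in pairs on the genome, and the start regions of the chains on which the results turn are shown here, as RefSeq gives them for GRCm38.p6 (the mm10 assembly). Each runs from 250 bases before the start of the transcript to 50 bases from it on, 5' to 3' on the gene's own strand. Col4a1 and Col4a2, the chains of the common type IV network, start 21 bases apart on opposite strands of chromosome 8, with gene bodies that overlap by 22 bases, so their windows (chr8:11312777-11313076, minus strand, and chr8:11312555-11312854, plus strand) share 78 bases. Col4a3 and Col4a4 start 72 bases apart on opposite strands of chromosome 1, and the Col4a4 window (chr1:82586800-82587099, minus strand) holds the 71 bases between them. Col1a2 (chr6:4505368-4505667, plus strand) and Col3a1 (chr1:45311288-45311587, plus strand) are shown beside them as fibrillar chains whose ratio differed from day to day. Capitals in the Col4a4 window mark the bases between both genes, and in the others they mark any of 3 searched motifs, read on either strand. The first motif was CCAAT, the second was GGGCGG and the last was TATAAA, and none of them overlap each other in the windows shown.
Col4a1: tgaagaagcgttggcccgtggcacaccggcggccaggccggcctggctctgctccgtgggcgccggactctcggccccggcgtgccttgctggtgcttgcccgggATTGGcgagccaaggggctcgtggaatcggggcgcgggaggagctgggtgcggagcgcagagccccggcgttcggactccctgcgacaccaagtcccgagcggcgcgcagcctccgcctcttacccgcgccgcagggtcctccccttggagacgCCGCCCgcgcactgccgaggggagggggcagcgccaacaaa
Col4a2: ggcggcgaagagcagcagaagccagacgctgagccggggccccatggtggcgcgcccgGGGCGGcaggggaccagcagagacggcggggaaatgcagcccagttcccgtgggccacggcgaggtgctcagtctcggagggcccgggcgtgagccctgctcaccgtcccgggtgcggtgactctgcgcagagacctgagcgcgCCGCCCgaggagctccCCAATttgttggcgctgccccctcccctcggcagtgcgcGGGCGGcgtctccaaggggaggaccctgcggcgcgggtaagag
Col4a4: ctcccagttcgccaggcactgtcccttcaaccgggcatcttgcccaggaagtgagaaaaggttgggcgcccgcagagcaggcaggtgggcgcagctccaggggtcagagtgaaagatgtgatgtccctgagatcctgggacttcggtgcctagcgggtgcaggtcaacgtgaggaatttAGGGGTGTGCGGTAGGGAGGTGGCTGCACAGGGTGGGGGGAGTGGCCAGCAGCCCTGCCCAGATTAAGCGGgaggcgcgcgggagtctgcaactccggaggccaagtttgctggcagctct
Col1a2: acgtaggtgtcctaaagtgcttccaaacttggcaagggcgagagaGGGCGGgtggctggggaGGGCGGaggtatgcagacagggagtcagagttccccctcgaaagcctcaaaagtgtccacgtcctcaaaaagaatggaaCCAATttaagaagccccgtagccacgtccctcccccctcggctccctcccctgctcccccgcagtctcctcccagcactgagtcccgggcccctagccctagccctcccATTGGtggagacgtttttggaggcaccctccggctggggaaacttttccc
Col3a1: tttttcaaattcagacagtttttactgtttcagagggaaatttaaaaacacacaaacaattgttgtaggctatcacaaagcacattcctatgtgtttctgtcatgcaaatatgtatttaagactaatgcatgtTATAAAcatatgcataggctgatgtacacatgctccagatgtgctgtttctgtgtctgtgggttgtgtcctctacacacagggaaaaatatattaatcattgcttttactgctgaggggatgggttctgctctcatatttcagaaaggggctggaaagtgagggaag
The Col4a1 and Col4a2 windows share 1 GGGCGG match (chr8:11312812-11312817), read on opposite strands in each. The Col1a2 window held 2 CCAAT and 2 GGGCGG matches, and the Col3a1 window held neither but had 1 TATAAA match 117 bases before its start. RefSeq windows were matched by symbol for 35 of the 44 genes, 38 windows in all, and not for Col1a1, Col2a1, Col4a3, Col5a2, Col9a3, Col12a1, Col14a1, Col22a1 and Col26a1. GGGCGG was in 60.5% of these against 35.7% of all 32851 windows, CCAAT in 34.2% against 37.4%, and TATAAA in 13.2% against 13.6%. A match describes the letters in a window and not a bound site.

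Nearly every collagen chain that could be tested was lower in suspension than in adherent libraries. Of the 44 chains, 32 passed the filter on low counts. Of these, 29 were lower in suspension, 1 was higher (Col11a2) and 2 did not pass the threshold (Col17a1 and Col20a1), by the quasi-likelihood test of edgeR at a Benjamini-Hochberg adjusted p of 0.05. Among all 14912 tested genes 29.7% were lower and 27.1% were higher. The median log2 ratio of suspension over adherent libraries was -4.63 for the 32 chains and -0.0025 for all tested genes. A gene passes the filter when it is read in the libraries of 1 fraction, so the count over the 32 chains describes them and leaves out chains at low levels in both fractions. The groups of 3 libraries did not overlap for 30 of the 32 chains. The share of all tested genes without overlap was not counted, so this number only describes the chains.

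**Figure D1:**
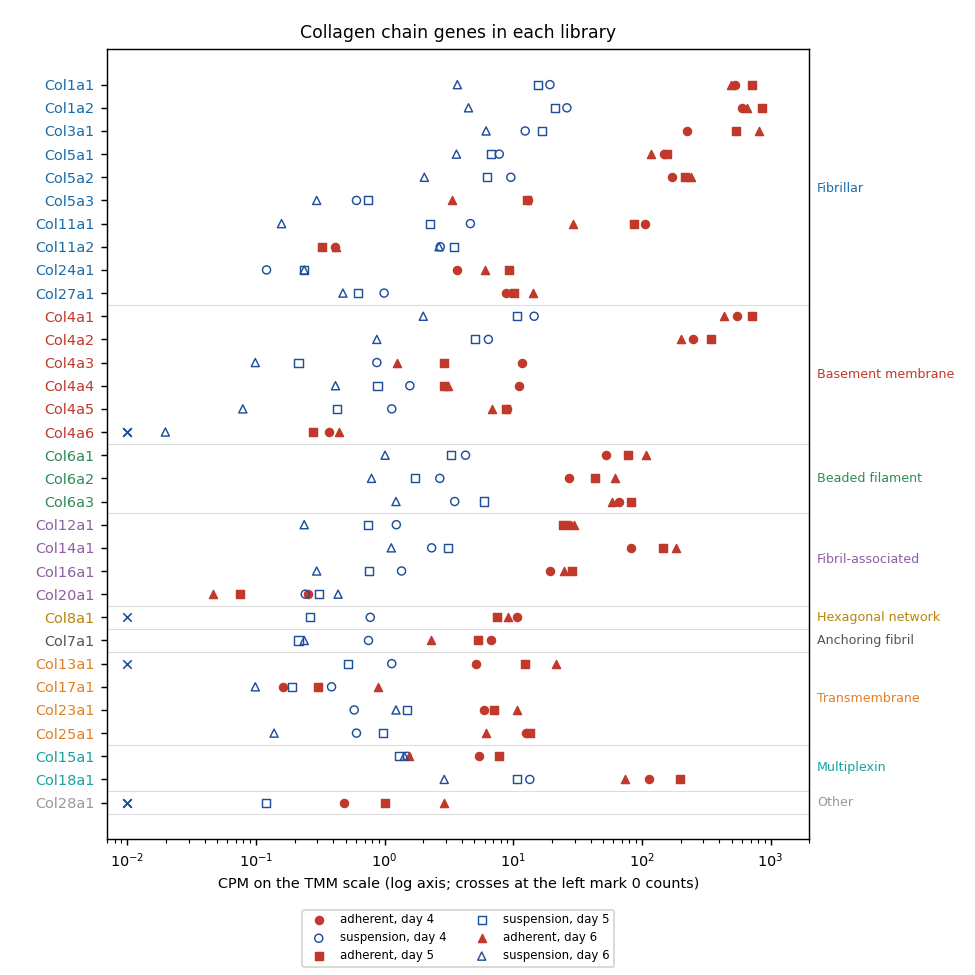
Level of each tested collagen chain in each of the 6 libraries, in CPM on a log axis, with chains grouped by class. Filled red symbols are adherent libraries, open blue symbols are suspension libraries, the shape gives the day and crosses mark 0 counts. All red symbols lie to the right of the blue ones except for Col11a2, where they lie to the left, and for Col17a1 and Col20a1, where they overlap.

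The chains of types I and III, which make up most fibrils of the lung, had the most reads of the fibrillar class in both fractions. Col1a1 (ENSMUSG00000001506, chr11:94936224-94953042, plus strand) had 531, 722 and 495 CPM in the adherent libraries of days 4, 5 and 6 and 19.3, 15.6 and 3.68 CPM in the suspension libraries. Its partner Col1a2 (ENSMUSG00000029661, chr6:4504814-4541544, plus strand) had 600.5, 854 and 660.2 CPM in adherent and 26.2, 21.1 and 4.49 CPM in suspension. Col3a1 (ENSMUSG00000026043, chr1:45311538-45349706, plus strand) had 224, 539 and 818 CPM in adherent and 12.4, 16.8 and 6.16 CPM in suspension. For all 3 chains the lowest adherent library lay far above the highest suspension library, and the suspension library of day 6 was the lowest of the 6. The log2 ratio of suspension over adherent libraries was -5.50 ± 0.66 (SE) for Col1a1, from means of 583 ± 122 CPM (SD, n = 3) in adherent and 12.9 ± 8.16 CPM (SD, n = 3) in suspension libraries (adjusted p = 0.00112). It was -5.36 ± 0.69 for Col1a2 (adjusted p = 0.00137) and -5.48 ± 0.64 for Col3a1 (adjusted p = 0.00106).

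Type V chains, which enter type I fibrils and regulate their start and width, were lower in suspension by a similar factor. Col5a1 had 149, 156 and 118 CPM in adherent and 7.80, 6.70 and 3.62 CPM in suspension libraries, a log2 ratio of -4.55 ± 0.32 (adjusted p = 0.00039). Col5a2 had 172, 218 and 239 CPM in adherent and 9.59, 6.22 and 2.04 CPM in suspension libraries, with a log2 ratio of -5.14 ± 0.58. Col5a3 was read at a lower level, with 13.1, 12.8 and 3.35 CPM against 0.605, 0.739 and 0.297 CPM and a log2 ratio of -4.16 ± 0.65. Col5a2 and Col3a1 are neighbours on chromosome 1, with 24614 bases between the ends of their gene bodies. For none of the 3 type V chains did the fractions overlap. Col11a1, a chain of type XI collagen that can pair with type V chains, had 106, 86.9 and 29.1 CPM in adherent and 4.65, 2.24 and 0.158 CPM in suspension libraries, with a log2 ratio of -4.99 ± 1.07 (adjusted p = 0.00821). The more distant fibrillar chains Col24a1 (3.67, 9.27 and 6.06 CPM against 0.121, 0.238 and 0.238 CPM, log2 ratio -4.96) and Col27a1 (8.77, 10.2 and 14.3 CPM against 0.993, 0.620 and 0.475 CPM, log2 ratio -4.00) were lower in suspension as well. Over the fibrillar class, 9 of the 10 tested chains were lower and the median log2 ratio was -4.98.

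Col11a2, another chain of type XI collagen, went the other way. It had 0.415, 0.327 and 0.419 CPM in adherent and 2.71, 3.48 and 2.65 CPM in suspension libraries, from 18, 13 and 18 reads against 112, 146 and 134. The fractions did not overlap and the days within a fraction differed little. The log2 ratio was 2.92 ± 0.28 (SE, adjusted p = 0.000633), in a direction opposite to that of Col11a1. Col11a2 (ENSMUSG00000024330, chr17:34039437-34066685, plus strand) begins 1037 bases beyond the end of Rxrb, a nuclear receptor gene on the same strand. Rxrb had 14.4, 18.1 and 16.4 CPM in adherent and 22.2, 23.5 and 21.1 CPM in suspension libraries, a log2 ratio of 0.45 ± 0.12 (adjusted p = 0.0189). Whether reads of the neighbouring gene take part in the Col11a2 count was not tested. Col2a1, the chain of cartilage fibrils, did not pass the filter, with 39 reads in the adherent and 33 in the suspension libraries.

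The basement membrane chains were lower in suspension without exception, 6 of 6, with a median log2 ratio of -4.53. Col4a1 (ENSMUSG00000031502, chr8:11198423-11312826, minus strand) had 544, 712 and 436 CPM in adherent and 14.6, 10.7 and 2.0 CPM in suspension libraries. Col4a2 (ENSMUSG00000031503, chr8:11312805-11449287, plus strand) had 249, 344 and 202 CPM in adherent and 6.42, 5.08 and 0.871 CPM in suspension libraries. Both chains were highest in the adherent library of day 5 and lowest in the suspension library of day 6. Their log2 ratios of -5.96 ± 0.78 and -6.01 ± 0.76 (SE, adjusted p = 0.00141 and 0.00132) correspond to levels 62.3 and 64.6 times as high in adherent libraries. Col4a2 had the lowest log2 ratio of the 32 chains.

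The chains of the specialised type IV networks were read at lower levels, with log2 ratios nearer to 0. Col4a3, which with Col4a4 and Col4a5 makes the network of alveolar and kidney basement membranes, had 11.7, 2.92 and 1.26 CPM in adherent and 0.872, 0.214 and 0.0990 CPM in suspension libraries, with a log2 ratio of -3.75 ± 1.11 (SE, adjusted p = 0.0273). Col4a4 had 11.1, 2.90 and 3.12 CPM in adherent and 1.57, 0.882 and 0.416 CPM in suspension libraries, with a log2 ratio of -2.58 ± 0.73 (adjusted p = 0.0226). For both chains the fractions did not overlap, but the lowest adherent library lay close to the highest suspension library. Col4a5 had 8.98, 8.79 and 6.80 CPM in adherent and 1.14, 0.429 and 0.0792 CPM in suspension libraries, with a log2 ratio of -3.91 ± 0.78 (adjusted p = 0.0062). Col4a6 had 46 reads in the adherent and 1 read in the suspension libraries together, a ratio of 48.8 per unit of library scale with a 95% counting interval from 8.34 to 1971. With reads on either strand, which add antisense reads, its log2 ratio was -1.65 (adjusted p = 0.0256), against -5.16 on the sense strand, so the size of the Col4a6 difference depends on the strand counted. The ratios of Col4a3 and Col4a4 were -2.92 and -1.97 with reads on either strand. The calls of Col4a3 and Col4a4 were lost when single libraries were dropped, with adjusted p of 0.0688 for Col4a3 without the adherent library of day 4, 0.0956 once the day 5 suspension library was dropped and 0.0698 once the day 6 one was. For Col4a4 the same suspension libraries gave an adjusted p of 0.0801 and 0.0596.

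Of the 6 beaded filament chains, the 3 of the common type VI molecule passed the filter and all 3 were lower in suspension, with a median log2 ratio of -4.68. Col6a1 (ENSMUSG00000001119, chr10:76708792-76726168, minus strand) had 52.4, 77.7 and 107 CPM in adherent and 4.26, 3.29 and 1.01 CPM in suspension libraries. Col6a2 (ENSMUSG00000020241, chr10:76595762-76623630, minus strand), which follows it on the same strand after 85161 bases, had 27.2, 43.2 and 62.2 CPM in adherent and 2.69, 1.72 and 0.792 CPM in suspension libraries. Col6a3, the longest chain of the molecule, had 66.03, 81.9 and 59.0 CPM in adherent and 3.51, 5.91 and 1.23 CPM in suspension libraries. The fractions did not overlap for any of these chains, and Col6a1 and Col6a2 were highest on day 6 in adherent and on day 4 in suspension libraries. The log2 ratios were -4.80 ± 0.58, -4.68 ± 0.53 and -4.29 ± 0.56 (SE), with adjusted p of 0.00116, 0.000957 and 0.00139. Col6a4, Col6a5 and Col6a6, which can stand in for Col6a3, had 7, 0 and 4 reads in all 6 libraries together and were not tested.

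The fibril-associated chains, which sit on the surface of fibrils, were lower in suspension for 3 of the 4 that passed the filter, of 9 in all. Col14a1 had 81.7, 145 and 183 CPM in adherent and 2.32, 3.12 and 1.13 CPM in suspension libraries, a log2 ratio of -5.97 ± 0.51 (SE, adjusted p = 0.00052). Col12a1 (27.3, 24.4 and 29.8 CPM against 1.24, 0.739 and 0.238 CPM) and Col16a1 (19.4, 28.5 and 24.9 CPM against 1.36, 0.762 and 0.297 CPM) had log2 ratios of -5.22 and -4.93. Col20a1 had few reads, with 0.254, 0.0756 and 0.0466 CPM in adherent and 0.242, 0.310 and 0.436 CPM in suspension libraries, and its log2 ratio of 1.37 ± 0.67 did not pass the threshold (adjusted p = 0.124). Without the adherent library of day 4, the one that overlaps the suspension group, the Col20a1 ratio was 2.39 with an adjusted p of 0.0234.

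Col18a1, a multiplexin of vessel and epithelial basement membranes whose end fragment is endostatin, had 114, 199.6 and 73.6 CPM in adherent and 13.5, 10.7 and 2.91 CPM in suspension libraries, a log2 ratio of -3.84 ± 0.66 (SE, adjusted p = 0.0036). Col15a1, the other multiplexin, had 5.38, 7.71 and 1.56 CPM in adherent and 1.501, 1.29 and 1.43 CPM in suspension libraries. Its suspension values were nearly level, and the adherent library of day 6 stood close to them. The log2 ratio of -1.79 ± 0.56 (adjusted p = 0.0317) was the smallest of the 29 lower calls in size. With the day as a replicate block it was -1.54 with an adjusted p of 0.0680, and it also missed the threshold without any 1 library other than the adherent one of day 6 (adjusted p from 0.0670 to 0.106).

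Of the 4 transmembrane chains, which span the cell membrane, 3 were lower in suspension. Col13a1 had 5.12, 12.4 and 21.3 CPM in adherent and 1.14, 0.524 and 0 CPM in suspension libraries, a log2 ratio of -4.57 ± 1.14 (SE, adjusted p = 0.0142, and 0.0594 without the suspension library of day 5). Col23a1 (5.93, 7.13 and 10.7 CPM against 0.581, 1.501 and 1.23 CPM) and Col25a1 (12.5, 13.5 and 6.13 CPM against 0.605, 0.977 and 0.139 CPM) had log2 ratios of -2.84 and -4.23. Col17a1, the hemidesmosome chain of epithelial cells, had 0.162, 0.302 and 0.885 CPM in adherent and 0.387, 0.191 and 0.0990 CPM in suspension libraries, which overlap (log2 ratio -1.005 ± 0.79, adjusted p = 0.311). Single chains of other classes were lower in suspension, namely the anchoring fibril chain Col7a1 (6.71, 5.29 and 2.28 CPM against 0.751, 0.214 and 0.238 CPM, log2 ratio -3.57) and the network chain Col8a1 (10.7, 7.46 and 9.18 CPM against 0.775, 0.262 and 0 CPM, log2 ratio -4.74). Col28a1 had 185 reads in adherent and 5 in suspension libraries, a ratio of 39.3 with a 95% counting interval from 16.5 to 122.

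**Figure D2:**
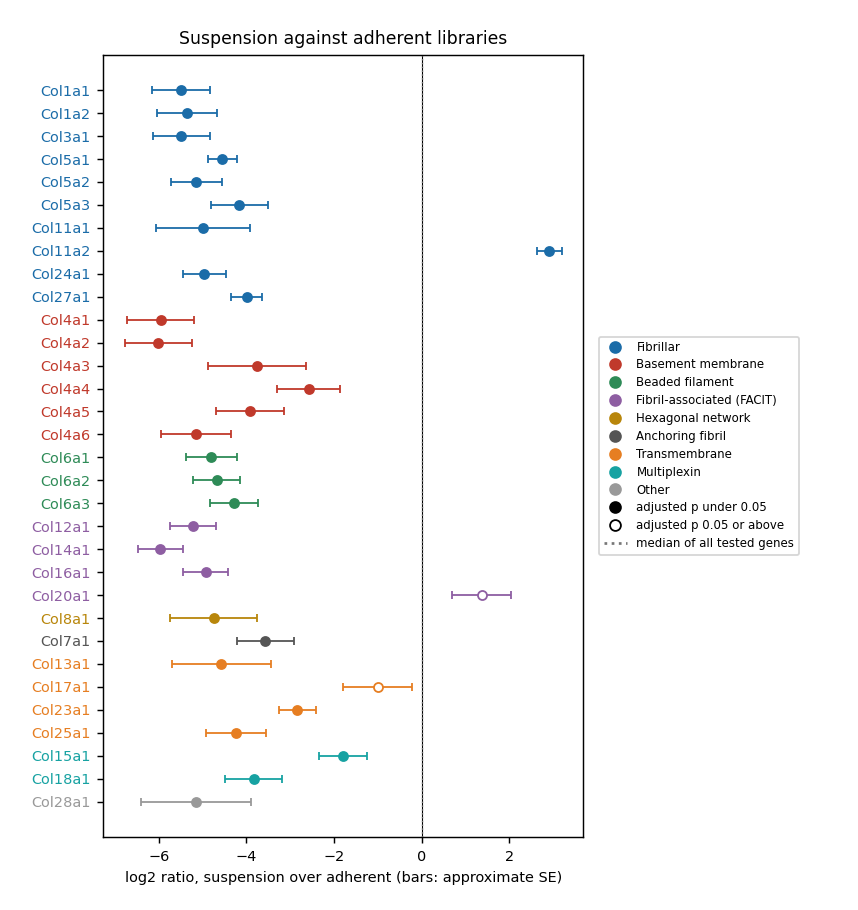
Log2 ratio of suspension over adherent libraries for the 32 tested collagen chains, with approximate standard errors and colours for the classes. Filled points passed an adjusted p of 0.05 in edgeR's quasi-likelihood test. The points run from -6.01 for Col4a2 to 2.92 for Col11a2, with Col17a1 and Col20a1 as open points, and those of Col4a6 and Col28a1 rest on 1 and 5 suspension reads.

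Summed over their chains, and not divided by length, reads were most numerous for the fibrillar, then the basement membrane and then the beaded filament class in each of the 6 libraries. The fibrillar sum was 1809.5, 2609 and 2384 CPM in adherent and 85.0, 73.7 and 23.9 CPM in suspension libraries. The basement membrane sum was 826, 1071 and 649.7 CPM in adherent and 24.6, 17.3 and 3.48 CPM in suspension libraries. The beaded filament sum was 146, 203 and 229 CPM in adherent and 10.5, 10.9 and 3.03 CPM in suspension libraries. In the ratio of the fraction means, the basement membrane sum was 56.2 times as high in adherent libraries, the fibrillar sum 37.3 times and the beaded filament sum 23.6 times. As another measure, the log2 sums were averaged within each fraction, and the adherent average was subtracted from the suspension one. This gave -6.19 for the basement membrane and -4.75 for the beaded filament sum. Without the suspension library of day 6 it gave -5.34 and -4.14. These sums are a description, since they mostly reflect the few most abundant chains of a class.

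Ratios of the sums within a library do not depend on its scale. The fibrillar sum was 2.19, 2.44 and 3.67 times the basement membrane sum in adherent and 3.46, 4.27 and 6.85 times in suspension libraries, higher in suspension on each day but with ranges that overlap. The beaded filament sum was 0.177, 0.189 and 0.352 times the basement membrane sum in adherent and 0.426, 0.634 and 0.869 times in suspension libraries, and these ranges did not overlap. Against the fibrillar sum it was 0.0805, 0.0777 and 0.0959 times in adherent and 0.123, 0.148 and 0.127 times in suspension libraries, again without overlap. As a share of all collagen CPM, the basement membrane chains were at 26.9%, 24.7% and 17.9% in adherent and 16.9%, 14.02% and 8.99% in suspension libraries of days 4, 5 and 6. In both fractions the share was lowest on day 6. The fibrillar share lay between 58.6% and 65.7% in all 6 libraries. The multiplexins, mostly Col18a1, had 3.88%, 4.78% and 2.07% in adherent and 10.3%, 9.74% and 11.2% in suspension libraries, and these did not overlap.

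**Figure D3:**
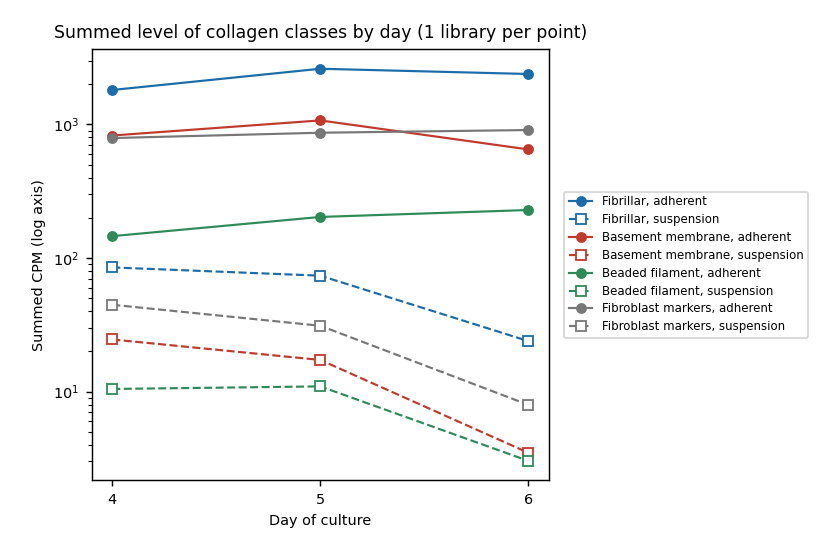
Summed CPM of the fibrillar, basement membrane and beaded filament chains, and of 14 fibroblast markers that hold no collagen, by day on a log axis, with 1 library per point. Filled circles and solid lines are adherent libraries, open squares and dashed lines are suspension libraries. Every suspension sum is lowest on day 6, while in adherent libraries the basement membrane sum is lowest on day 6 (649.7) and the beaded filament sum highest (229).

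A day slope common to both fractions was not called for any collagen chain. With the quasi-likelihood test of edgeR and the same adjustment, 0 of 32 chains were lower with day and 0 were higher, against 0% and 0.0134% of all tested genes. At an unadjusted p of 0.05 in the edgeR test, 6 of 32 chains were lower and 1 was higher. Among all 14912 tested genes 1285 were lower and 1751 were higher at that level. DESeq2 called 4 chains lower (Col4a3, Col4a4, Col7a1 and Col11a1) and 0 higher, and its share of all genes is not given. The median slope of the 32 chains was -0.33 on the log2 scale per day, against 0.02 for all tested genes.

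Within the adherent libraries, few collagen chains had a day slope past the threshold. The slope was called for 2 of 32 chains, 1 lower with day (Col4a3) and 1 higher (Col6a2), against 3.52% and 7.75% of all tested genes, so calls were no more frequent among the chains than among all genes. Col4a3 fell by 1.62 ± 0.19 on the log2 scale per day (SE, adjusted p = 0.0143), and its day 4 level was 9.28 times that of day 6. Col6a2 rose by 0.60 ± 0.08 per day (SE, adjusted p = 0.0162), and its day 6 level was 2.29 times that of day 4. The fit has 2 residual degrees of freedom, and the number of calls depended on the tool and filter. DESeq2 called 1 chain lower and 3 higher (Col6a1, Col6a2 and Col13a1). Without a filter, where 43 chains were tested, 5 were lower and 6 higher. For these alternatives the share of all genes is not given, so their counts only describe the chains. Col4a3 had 568 antisense against 726 sense reads, and with reads on either strand its slope was -0.999 with an adjusted p of 0.0445.

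The other chains of the same molecules did not pass the threshold. Col6a1 had a slope of 0.52 ± 0.14 (SE, adjusted p = 0.0768), while the slope of Col6a3, whose adherent level was highest on day 5, was -0.08 ± 0.35. Col4a4 had a slope of -0.93 ± 0.26 (adjusted p = 0.0801). The slopes of Col4a1, Col4a2 and Col4a5 were -0.16 ± 0.29, -0.15 ± 0.30 and -0.20 ± 0.16. Among the fibrillar chains, Col3a1 had the highest slope, 0.94 ± 0.26 (adjusted p = 0.079), with a day 6 level 3.66 times that of day 4. Col11a1 had a slope of -0.93 ± 0.29 (adjusted p = 0.103) and Col5a3 of -0.96 ± 0.35 (adjusted p = 0.139), with day 4 levels 3.65 and 3.90 times those of day 6. Col1a1 and Col1a2 had slopes of -0.05 and 0.07. By order alone, 10 of the 32 chains had levels that were higher on each later adherent day, 6 had lower ones and 16 were mixed, against 33.5%, 21.9% and 44.5% of all tested genes.

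**Figure D4:**
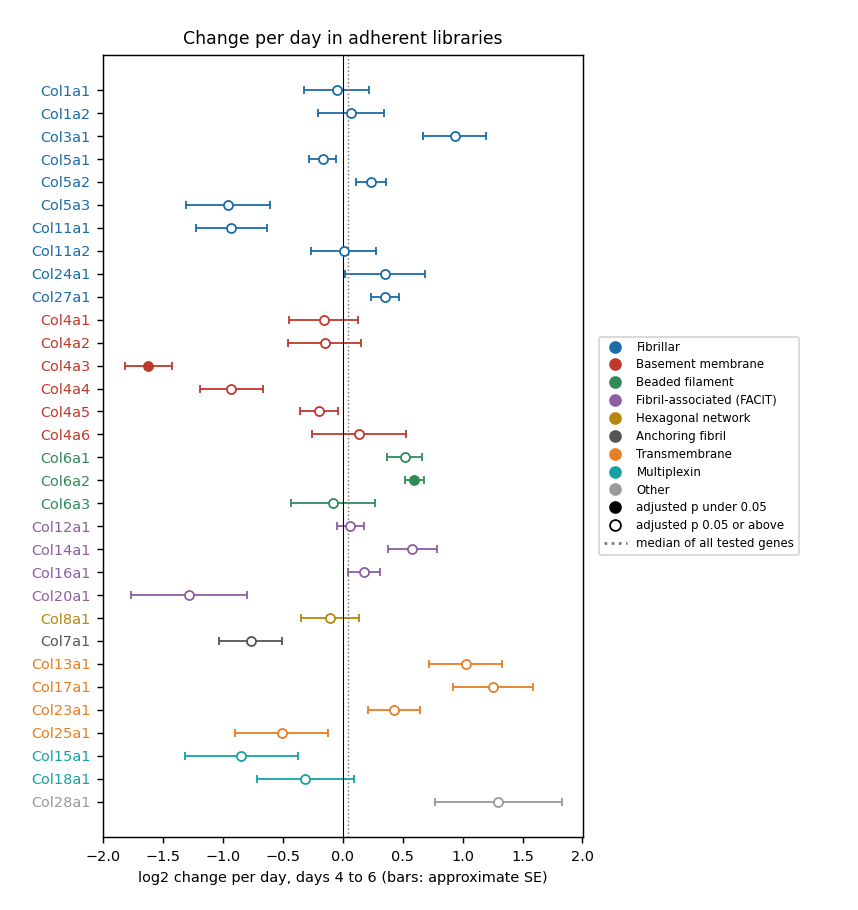
Change of each tested collagen chain per day in the adherent libraries, on the log2 scale, with approximate standard errors, and the median of all tested genes as a dotted line. Filled points, Col4a3 at -1.62 and Col6a2 at 0.60, passed an adjusted p of 0.05 in edgeR's quasi-likelihood test. Points of both signs occur in the fibrillar, basement membrane and beaded filament classes, most of them open.

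In the suspension libraries the levels were mostly lower on later days. Of the 32 chains, 19 were lower on each later day, 1 was higher (Col20a1) and 12 were mixed, against 24.9%, 24.1% and 51% of all tested genes. None of the suspension slopes passed the threshold in edgeR with Benjamini-Hochberg adjustment (0 lower and 0 higher, against 0.402% and 0.0939% of all tested genes). At an unadjusted p of 0.05 in the edgeR test, 20 of 32 chains were lower and 0 were higher. Among all 14912 tested genes 1462 were lower and 995 were higher at that level. DESeq2 called 12 chains lower and 0 higher, and without a filter on low counts 15 were called lower. For these last counts the share of all genes is not given. The median slope was -0.92 per day, against -0.01 for all tested genes. The sum over all collagen chains was 145, 123 and 38.8 CPM in the suspension libraries of days 4, 5 and 6.

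The test of the difference between both slopes (suspension minus adherent) called 1 of 32 chains lower, Col6a2, and 0 higher, against 0.463% and 0.0536% of all tested genes. The difference for Col6a2 was -1.46 ± 0.13 per day (SE, adjusted p = 0.0485), from a slope of 0.60 ± 0.08 in adherent and -0.86 ± 0.11 in suspension libraries. Of the other chains, Col6a1 had a difference of -1.49 ± 0.24 (adjusted p = 0.0701) and Col5a2 of -1.32 ± 0.19 (adjusted p = 0.0634). At an unadjusted p of 0.05 in the edgeR test, 15 of 32 chains were lower and 1 was higher. Among all 14912 tested genes 2153 were lower at that level and fewer were higher, so lower calls prevailed there too. DESeq2 called 8 chains lower and 0 higher. Its share of all genes is not given, so this last count only describes the chains. The median difference was -1.02, against -0.07 for all tested genes.

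Ratios between chains of one molecule or one gene pair show which chains kept their proportion. Col4a1 over Col4a2 was the steadiest, at 2.18, 2.07 and 2.15 in adherent and 2.27, 2.10 and 2.30 in suspension libraries, while the level of Col4a1 ranged from 2.0 to 712 CPM over the same libraries. The pair shares the start region printed above. Col4a3 and Col4a4, the other pair with a printed start region, did not keep a steady proportion. Their ratio was not among the planned ones. In adherent libraries Col4a3 had 11.7, 2.92 and 1.26 CPM and Col4a4 11.1, 2.90 and 3.12 CPM, near each other on days 4 and 5 and apart on day 6. In suspension libraries they had 0.872, 0.214 and 0.0990 CPM and 1.57, 0.882 and 0.416 CPM, from only 36, 9 and 5 Col4a3 reads. Whether a common start region has a part in any ratio was not tested. Col1a1 over Col1a2 was 0.885, 0.846 and 0.750 in adherent and 0.738, 0.741 and 0.819 in suspension libraries, and the fractions overlap. Col6a1 over Col6a2 was 1.93, 1.80 and 1.72 in adherent and 1.59, 1.92 and 1.27 in suspension libraries, where the suspension library of day 6 holds 51 and 40 reads of the chains. Col6a3 over Col6a1 varied more, at 1.26, 1.05 and 0.550 in adherent and 0.824, 1.80 and 1.22 in suspension libraries. Col5a1 over Col5a2 was 0.865, 0.716 and 0.495 in adherent and 0.813, 1.08 and 1.78 in suspension libraries, lowest on day 6 in the first and highest on day 6 in the second. Col8a1 over Col8a2 rests on 1, 2 and 8 Col8a2 reads in adherent libraries and is not interpreted.

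Other ratios, chosen after their values were seen, differed by day in both fractions. Col3a1 over Col1a2 was 0.372, 0.631 and 1.24 in the adherent libraries of days 4, 5 and 6 and 0.474, 0.798 and 1.37 in the suspension libraries of the same days. On each day the fractions were closer to each other than the days were, although both levels differed many times between fractions. The share of Col3a1 in all collagen CPM was correspondingly 7.28%, 12.4% and 22.5% in adherent and 8.55%, 13.7% and 15.9% in suspension libraries. Col11a1 over Col5a1 went the opposite way, at 0.715, 0.556 and 0.246 in adherent and 0.596, 0.335 and 0.0437 in suspension libraries, the last from 8 Col11a1 reads. Col4a3 over Col4a1 was 0.0215, 0.00410 and 0.00289 in adherent and 0.0599, 0.0201 and 0.0495 in suspension libraries, highest on day 4 in both. With reads on either strand its mean log2 in suspension was -2.62, against -4.68 on the sense strand. These ratios carry no test.

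**Figure D5:**
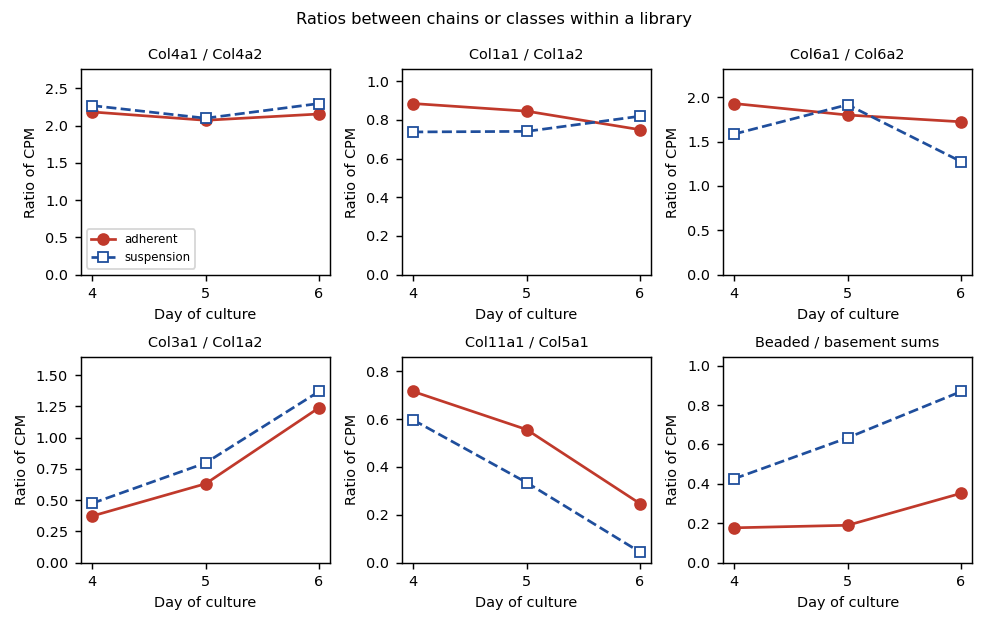
Ratios of CPM within a library by day, for 5 pairs of chains and for the beaded filament over the basement membrane sum, with filled red circles for adherent and open blue squares for suspension libraries, 1 library per point and axes from 0. Col4a1 over Col4a2 stays between 2.07 and 2.30, Col3a1 over Col1a2 goes from 0.372 to 1.24 in adherent and from 0.474 to 1.37 in suspension libraries, and Col11a1 over Col5a1 goes down in both.

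Genes that act on collagen were examined as lists by role, and their counts stand beside 29.7% lower and 27.1% higher among all tested genes. Of 19 enzymes and chaperones of the endoplasmic reticulum, 14 were lower and 2 higher in suspension. Serpinh1, the collagen chaperone HSP47, had 855, 823 and 537 CPM in adherent and 27.4, 18.3 and 2.12 CPM in suspension libraries (log2 ratio -5.54 ± 0.93, SE), a ratio near those of the chains. Ppib, a prolyl isomerase with many other clients, had 878, 896 and 814 CPM against 507, 474 and 496 CPM (log2 ratio -0.81 ± 0.10). The 2 higher ones were Plod1, a lysyl hydroxylase (log2 ratio 0.85), and Tmem38b, a potassium channel of the endoplasmic reticulum (log2 ratio 1.09). Of 6 export genes 4 were lower, among them Creb3l2 (log2 ratio -2.22), and 1 was higher, Mia2 (log2 ratio 0.76).

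Outside the cell, all 7 tested propeptide cleavage genes of 8 listed were lower in suspension, among them Pcolce, an enhancer of procollagen cleavage (log2 ratio -5.21 ± 0.59, SE), and the protease Bmp1 (-4.40 ± 0.67). All 5 crosslinking enzymes were lower, such as Lox (76.3, 68.4 and 195 CPM in adherent and 3.61, 2.19 and 1.21 CPM in suspension libraries, log2 ratio -5.61 ± 0.64) and Loxl2 (log2 ratio -5.40 ± 0.55). All 8 fibril-binding proteins were lower, with Sparc (log2 ratio -6.10 ± 1.05) and Bgn (-5.18 ± 0.86) at the highest levels. In this last list the adherent slope was called higher for 3 of 8 genes and lower for 0, against 7.75% and 3.52% of all tested genes. This was not particular to the list. The degrading enzymes had the same counts, 3 of 8 and 0. Of the marker lists described below, fibroblast markers had 4 higher and 1 lower of 14, and macrophage and neutrophil markers 7 higher and 0 lower of 8. Of the 3 fibril-binding genes, Ogn had 3.37, 27.3 and 229 CPM (slope 3.04 ± 0.09 per day). Dcn, which is also on the fibroblast list, had 22.01, 60.5 and 103 CPM (slope 1.11 ± 0.12). Aspn had 0.715, 1.61 and 5.29 CPM (slope 1.45 ± 0.22). Sparc and Bgn had slopes below 0, -0.31 ± 0.38 and -0.24 ± 0.28, which were not called.

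Receptors and degrading enzymes were mixed. Of 9 tested collagen receptors of 10 listed, 7 were lower in suspension, among them the integrin chain Itgb1 (log2 ratio -1.43 ± 0.19, SE) and the receptor kinase Ddr2 (-4.85 ± 0.63). Lair1, an inhibitory collagen receptor of leukocytes, was higher, with 2.70, 5.16 and 12.4 CPM in adherent and 25.0, 30.4 and 36.8 CPM in suspension libraries (log2 ratio 2.18 ± 0.54). Of 8 degrading enzymes 3 were lower (Mmp2, Mmp13 and Mmp14) and 5 were higher, among them Ctsl (log2 ratio 1.04 ± 0.24) and Ctsb (1.40 ± 0.27). Mmp8, the collagenase of neutrophils, had 43.2, 119 and 147 CPM in adherent and 599, 816 and 940.2 CPM in suspension libraries (log2 ratio 2.93 ± 0.47), and Mmp9 had a log2 ratio of 5.75 ± 0.73. Over all lists 48 of 62 tested genes were lower and 9 were higher, with a median log2 ratio of -3.85, against the same 29.7% and 27.1% of all tested genes. Gp6, the collagen receptor of platelets, was not tested and had no read in the adherent libraries.

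Markers of several cell types differed between fractions in the same direction as the collagen chains. The VE-cadherin sorted libraries held the endothelial markers of the label, 10 of 10 above 3 counts, with a sum of 869, 1722 and 660.3 CPM in adherent and 20.4, 16.2 and 13.3 CPM in suspension libraries. They also held all 14 fibroblast markers, with a sum of 790.0, 866 and 907 CPM in adherent and 44.7, 31.1 and 7.96 CPM in suspension libraries, where 12 to 13 of 14 were above 3 counts. All 14 fibroblast markers were lower in suspension. The collagen sum was 3.89, 5.01 and 4.00 times the fibroblast marker sum in adherent and 3.25, 3.96 and 4.87 times in suspension libraries, and these ranges overlap. The basement membrane sum was 1.05, 1.24 and 0.716 times the fibroblast marker sum in adherent and 0.550, 0.555 and 0.438 times in suspension libraries, and these do not.

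Smooth muscle and pericyte markers summed to 3134, 659.5 and 857 CPM in adherent and 124, 20.9 and 9.25 CPM in suspension libraries, and epithelial markers to 1516, 372 and 995 CPM and 266, 39.6 and 13.9 CPM. Both sums were highest on day 4 in each fraction, as were the chains Col4a3, Col4a4, Col4a5, Col7a1, Col8a1 and Col11a1. The mesothelial sum given below was too. The fibroblast marker sum was highest on day 4 in suspension and on day 6 in adherent libraries. Of its 14 members, only Fbln2 and Thy1 were highest on day 4 in each fraction. In suspension libraries a day 4 maximum was common, with 19 of the 32 tested chains lower on each later day. The markers within a sum differed in this. In adherent libraries Tagln (1204, 196 and 229 CPM) and Krt18 (243, 73.5 and 30.1 CPM) were highest on day 4. Rgs5 (0.600, 1.66 and 12.2 CPM) and Sftpc (766, 120 and 773 CPM) were highest on day 6. Mesothelial markers summed to 175, 61.3 and 44.5 CPM in adherent and 14.9, 4.24 and 0.990 CPM in suspension libraries, with Lrrn4 at 0 reads in the adherent libraries. Cartilage markers summed to at most 2.37 CPM in every library. In the adherent ones most of this was Hapln1, and Acan and Snorc had 0 reads. Macrophage and neutrophil markers were higher in suspension, 8 of 8, as were Lair1, Mmp8 and Mmp9, with sums of 1813, 2994 and 5357 CPM in adherent and 37148, 40955 and 80428 CPM in suspension libraries. The part of each cell type in the collagen differences was not tested.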

How the data were processed

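The authors deposited read counts per gene for each of the 6 whole libraries, with counts for reads on either strand, the sense strand and the antisense strand, per the file layout. Per the submitters' processing notes bcl2fastq, Cell Ranger and STARsolo were used with the mm10 genome. Sources used here name no versions and no annotation. The counts have no cell axis and are not corrected for molecular identifiers. Sense counts were used. The 4 summary lines of each file, which held between 37.59% and 55.54% of all entries of the sense column, were left out. Symbols came from GENCODE M21 (GRCm38), which held 31011 of the 31053 identifiers.

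Library totals lay between 36451255 and 57784974, so that 3 counts equal at most 0.0756 CPM. Counting intervals (95%, exact binomial) and floors cover counting error only. In R 4.3.3 with limma 3.58.1 and edgeR 4.0.16, filterByExpr kept 14912 of 22019 genes with a count, and TMM factors were used. The quasi-likelihood test of edgeR compared the fractions (4 residual degrees of freedom), the day slope they have in common (3), and in a further fit the slope in either fraction and how these differ (2). Benjamini-Hochberg adjustment ran over all tested genes, and 0.05 was the threshold. The SE of a log2 ratio or slope is approximate (its size over the root of F). The 3 days serve as replicates of a fraction. Class sums and ratios are described without a test, by choice.

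By the labels, a day is common to 1 library of each fraction. Across genes, the departures of such pairs from their fraction means had correlations of 0.339, 0.146 and 0.288, and other pairs had correlations from -0.308 to 0.00609, so an alternative fit has the day as a block. Other alternatives were the counts of both strands, scaling by DESeq2, the Wald test of DESeq2 1.42.0, unfiltered genes, a minimum of 10 CPM in 3 libraries and leaving out each library. The procedure was also run on simulated counts, with the same setting of spread for all genes and changes in few of them. Its outcome is not given, and no result here rests on it. The genes, lists, tests and alternatives were chosen with earlier results of these data known. Every fibrillar, basement membrane and beaded filament chain past the filter was named, as was each chain of another class past the threshold of the fraction contrast or with a mean of at least 5 CPM. Of each list of genes that act on collagen, the 2 called members highest in mean CPM were named. Other genes named were chosen after their values were seen.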

Additional observations from a re-analysis of the deposited data

Results flagged for a closer look

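Col6a2, a chain of type VI collagen, had day slopes that differed between fractions by edgeR's test of the difference, with a value of -1.46 on the log2 scale per day (suspension minus adherent, adjusted p = 0.0485). The adherent values were 27.2, 43.2 and 62.2 CPM on days 4, 5 and 6 and the suspension values 2.69, 1.72 and 0.792 CPM, so that each adherent library was higher and each suspension library lower than the one of the day before. The fibroblast marker sum over the same days was 790.0, 866 and 907 CPM in adherent and 44.7, 31.1 and 7.96 CPM in suspension libraries, and its part in the difference was not tested.

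For 3 chains more reads lay on the antisense than on the sense strand over the 6 libraries, in the antisense column that the comparisons do not use. Col9a3 had 97 antisense reads (64, 15 and 17 in the adherent libraries of days 4, 5 and 6) against 24 sense reads. Col10a1 had 95, between 13 and 19 in each library, against 18. Col6a6 had 11 against 4. None of the 3 passed the filter on sense counts. Tcfl5 lies on the other strand at Col9a3 and Nt5dc1 at Col10a1, and whether the reads come from them was not tested.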

How the results depend on the processing

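Directions and calls of the fraction contrast mostly held, while the size of several ratios did not. With reads on either strand, with DESeq2 size factors, with the DESeq2 test and without a filter the direction of every named chain and its side of the threshold were kept. Leaving out 1 library at a time gave between 25 and 29 chains lower and between 1 and 2 higher, the second being Col20a1 without the adherent library of day 4. Keeping genes that reach 10 CPM in 3 libraries left 15 chains, of which 15 were lower and 0 higher. In the paired fit, with the day as a replicate block, 28 chains were lower and 1 higher, the lost call being Col15a1, and no other collagen call changed.

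Some log2 ratios of suspension over adherent moved by over 1.5-fold. With reads on either strand Col4a6 went from -5.16 to -1.65, Col4a3 from -3.75 to -2.92 and Col4a4 from -2.58 to -1.97. Without the suspension library of day 4 the ratios were -6.02 for Col11a1, -5.86 for Col12a1, -5.70 for Col13a1, -5.57 for Col16a1, -1.66 for Col17a1, -5.14 for Col4a3, -3.20 for Col4a4, -5.07 for Col4a5, -4.43 for Col7a1 and -6.21 for Col8a1. Without that of day 5 they were -8.99 for Col28a1, whose 5 suspension reads all lie there, -4.91 for Col25a1 and -4.90 for Col6a3. Without that of day 6 they were -6.95 for Col4a6, -4.55 for Col28a1, -3.97 for Col13a1 and -4.15 for Col8a1. Without the adherent library of day 4 they were -2.41 for Col4a3, -1.66 for Col4a4 and 2.39 for Col20a1, and without that of day 6 -4.19 for Col28a1 and -0.05 for Col17a1.

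The slope calls were less stable, and how many of all genes these alternatives called is not given. Of the common slope, DESeq2 called 4 chains lower and the fit without a filter 1. Of the adherent slope, no filter gave 5 lower and 6 higher, DESeq2 gave 3 higher and the filter of 10 CPM gave 0 lower, since Col4a3 is then not tested. Of the suspension slope, DESeq2 called 12 lower and no filter 15, and of the slope difference 8 and 11. The basement membrane over fibroblast marker sum in suspension had a mean log2 of -0.71 with reads on either strand, against -0.97. In the suspension libraries many chains rest on few reads, so ratios between them there are imprecise.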

Other observations

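The 12 chains that did not pass the filter hold few reads, but several were not spread evenly over the libraries. Col2a1, the chain of cartilage fibrils, had 35, 4 and 0 reads in the adherent libraries of days 4, 5 and 6 and 29, 1 and 3 in the suspension libraries, so that most of its 72 reads came from day 4 in both fractions. Of the 6 cartilage markers, Acan and Snorc had no reads in the adherent libraries, and the others had some. Hapln1 had 2.21, 2.19 and 1.44 CPM there and 1.40, 0.810 and 0.436 CPM in suspension libraries. Matn1, Cnmd and Comp had 22, 6 and 31 reads in all libraries together. The 2 reads of Acan lay in the suspension library of day 4. Col9a2, a fibril-associated chain, had 4, 23 and 95 reads in the adherent libraries and 8 in the suspension libraries together. Col19a1 had 12 reads, all in suspension and 10 of them on day 4, and Col26a1 had 5, also all in suspension. Col10a1 had 4 reads in adherent and 14 in suspension libraries. Col22a1 had 18 and 5, Col9a3 14 and 10, Col8a2 11 and 1, and Col9a1 9 and 4. Col6a5 had no read in any library. No test was made of these counts.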
